A study of Mus musculus with 23 samples.

Results

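The 10 genes described here encode enzymes and subunits of de novo ceramide synthesis, and were taken by symbol from the 54354 genes of the deposited count table. They are Sptlc1, Sptlc2, Sptlc3 and Sptssa (serine palmitoyltransferase), Kdsr (the ketoreductase), Cers2, Cers4, Cers5 and Cers6 (ceramide synthases) and Degs1 (the desaturase). All 10 were found, and 8 of 10 passed the filter on low counts and were tested. Sptlc3 and Cers4 did not pass it and are given by their counts.

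Ceramide is the lipid core from which sphingomyelin and glycosphingolipids are built. The de novo route starts in the endoplasmic reticulum, where serine palmitoyltransferase joins serine to palmitoyl-CoA, and the ketoreductase reduces the product to dihydrosphingosine. A ceramide synthase then attaches a fatty acyl chain, each synthase with its own preference for chain length, and the desaturase adds the double bond that turns dihydroceramide into ceramide. In intestinal epithelium, ceramides with very long chains and the glycosphingolipids made from them are major membrane lipids.

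The libraries come from mouse colon tumours grown after orthotopic injection of AKP-tdT organoids carrying a Basp1-eGFP-DTR allele. AKP is the name of the organoid line's genotype in the labels, tdT is a red fluorescent label, and the Basp1 allele couples a green fluorescent protein and a diphtheria toxin receptor to Basp1. Digested tumours were sorted by flow cytometry into GFP-positive cells (11 libraries) and GFP-negative cells (12 libraries), both with the genotype label Basp1-GFP and the tissue label colon. Both populations share the organoid genotype and the injection, no library is labelled with a diet or an age, and the extraction protocol speaks of organoids where the design speaks of tumours. How GFP-negative cells were gated (on the tdT label or not) is not stated in the labels used here, and nothing in the labels assigns libraries to separate animals. Some library names join a pair of identifiers, and GFP-positive 2 and GFP-positive 7 carry the same identifier. The p-values therefore measure the spread between libraries, which may in part be technical.

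Totals ran from 37125 to 4238877 counts per GFP-positive library (median 1418140) and from 25458 to 2304316 per GFP-negative library (median 144334.5), with 1 GFP-positive and 3 GFP-negative libraries under 100000. Library numbers fall into a run with 5 GFP-positive and 6 GFP-negative libraries (library set 1) and a run with 6 of each (library set 2), treated as a possible batch. All 10 epithelial markers had counts in both populations, with a summed level between 2518 and 7204 CPM (counts scaled to a common library total) in GFP-positive and between 2659 and 7660 CPM in GFP-negative libraries. The 8 fibroblast markers summed to a median of 199 CPM (range 0 to 2082) in GFP-positive and 1755 CPM (range 124 to 8628) in GFP-negative libraries. The 10 macrophage markers summed to a median of 269 CPM in GFP-positive and 2009 CPM (range 310 to 5853) in GFP-negative libraries. GFP-positive 3 stood apart with 23154 CPM of macrophage markers, while the other 10 GFP-positive libraries held between 101 and 763. Of the 7 T and NK cell markers, Cd3e, Cd3d, Nkg7 and Cd8a had no count in any library, and the list summed to a median of 273 CPM (range 108 to 768) in GFP-positive and 151 CPM (range 52.0 to 465) in GFP-negative libraries. The 5 endothelial markers summed to a median of 56.3 CPM (range 26.9 to 212) in GFP-positive and 89.6 CPM (range 0 to 413) in GFP-negative libraries. In sorted bulk samples, fewer cells of a type and less RNA per cell cannot be told apart.

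No member of the pathway was called different between the GFP populations. In edgeR's quasi-likelihood test over 6621 genes with Benjamini-Hochberg adjustment, 0 of the 8 tested members passed an adjusted p of 0.05, beside 0.0151% of all tested genes (1 gene). At an unadjusted p under 0.05 the same test held 0 members and 4.95% of all genes, and DESeq2 called 0 of the 9 members to which it gave an adjusted p. The log2 fold change of GFP-positive over GFP-negative was positive for 6 of 8 members, beside 58.5% of all genes, with a median of 0.21 over the members and 0.066 over all genes. The 95% intervals of all 8 held 0. For Sptlc2, Sptssa, Cers2 and Cers6, 4 of the 8, the interval also lay within a 2-fold change in either direction, whereas it reached beyond 2-fold higher for Degs1, Kdsr and Cers5 and beyond 2-fold lower for Sptlc1.

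**Figure D1:**
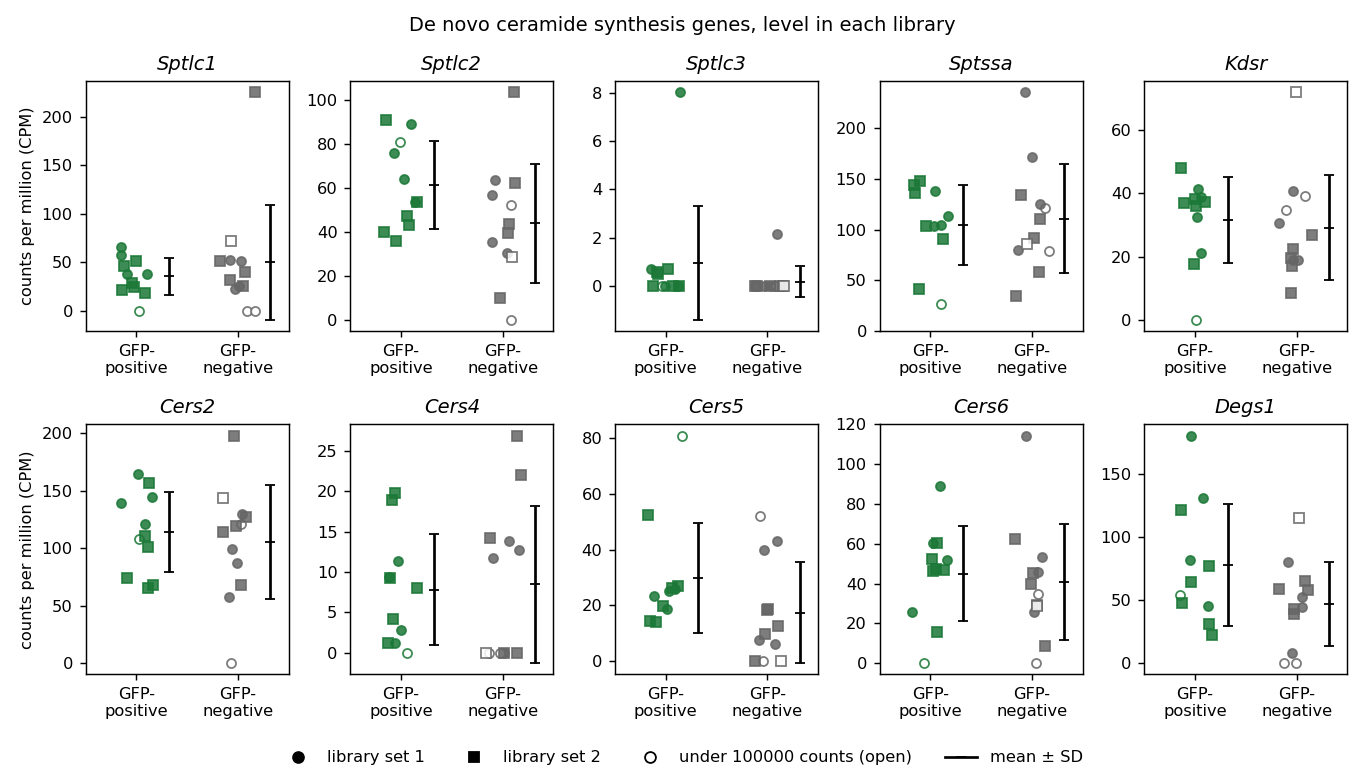
Level of each of the 10 genes in every library, in CPM on a linear axis that differs between panels, with GFP-positive libraries left (green) and GFP-negative libraries right (grey). Circles are library set 1, squares library set 2, open symbols libraries under 100000 counts, and the bars give the mean and SD. The populations overlap in every panel, and single libraries stand high for Sptlc1 (225 CPM, GFP-negative 11) and Sptlc3 (8.02 CPM, GFP-positive 1).

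Sptlc1 encodes the subunit that every serine palmitoyltransferase complex contains. It lay on chromosome 13 (mm10, 53332748 to 53377397, minus strand). Its level was 0 CPM in the lowest, 37.8 in the median and 65.8 in the highest GFP-positive library, against 0, 35.3 and 225 CPM in GFP-negative libraries. The medians were close. The mean was 35.5 ± 19.2 CPM for GFP-positive (SD, n = 11) and 49.8 ± 59.3 CPM for GFP-negative (SD, n = 12), the second raised by GFP-negative 11. That library's 225 CPM rested on 23 counts. The fold change was -0.33 on the log2 scale (SE 0.38, adjusted p = 0.997, edgeR quasi-likelihood test) and 0.086 without GFP-negative 11, so its direction rested on that library. The zeros fell in GFP-positive 4, GFP-negative 4 and GFP-negative 5, where 3 counts correspond to 80.8, 52.0 and 118 CPM, so Sptlc1 was not detectable there at those depths.

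Sptlc2 encodes the catalytic partner of Sptlc1, on chromosome 12 (87305058 to 87388355, minus strand). It ranged from 35.6 through a median of 53.6 to 90.9 CPM in GFP-positive libraries, against 0, 41.5 and 103 CPM in GFP-negative libraries. Of the 11 GFP-positive libraries, 9 lay above the GFP-negative median, and 5 GFP-negative libraries lay below every GFP-positive one, but the highest value of all was GFP-negative (GFP-negative 10). Among those 5, GFP-negative 5, 11 and 12 held 0, 1 and 2 counts, under the detection floor of 3 counts. The difference of 0.35 on the log2 scale (SE 0.29, 95% interval -0.24 to 0.94) did not pass the test (adjusted p = 0.997, edgeR quasi-likelihood test). In library set 1, 4 of 5 GFP-positive libraries lay above all 6 GFP-negative ones. Among those 4, the 80.8 CPM of GFP-positive 4 rested on 3 counts. GFP-positive 3, at 63.75 CPM, lay just above GFP-negative 3, at 63.55 CPM from 10 counts. The log2 fold change was 0.64 (SE 0.42) in library set 1 and 0.082 (SE 0.41) in library set 2.

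Sptlc3 encodes an alternative catalytic subunit that accepts other acyl-CoA chain lengths and is best known from skin, liver and placenta. The table held 40 counts of it over all GFP-positive libraries, against 5 over all GFP-negative libraries. Of the 40 counts, 34 came from GFP-positive 1, the deepest library, where they made 8.02 CPM, and all 5 GFP-negative counts came from GFP-negative 6. No count was found in 6 of 11 GFP-positive and 11 of 12 GFP-negative libraries. Sptlc3 made up 3.53% of the summed Sptlc2 and Sptlc3 counts in GFP-positive libraries (95% Wilson interval 2.60 to 4.77%, 1134 counts) and 1.61% in GFP-negative libraries (0.69 to 3.72%, 310 counts). These intervals overlap and, like the other pooled intervals given here, cover counting error only. The other 10 GFP-positive libraries held 0 to 2 counts each, and the other 11 GFP-negative libraries none.

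Sptssa encodes the small subunit that raises the activity of the complex, on chromosome 12 (54645392 to 54656573, minus strand). Its level was 26.9 CPM in the lowest, 105 in the median and 148 in the highest GFP-positive library, against 34.4, 101 and 236 CPM in GFP-negative libraries. The medians were close, and GFP-negative 2 and GFP-negative 3, with 236 and 172 CPM, lay above every GFP-positive library. The fold change was -0.025 on the log2 scale (SE 0.26, 95% interval -0.56 to 0.51; edgeR quasi-likelihood test, adjusted p = 0.997), with a sign that turned under several settings. The library sets differed in sign. In set 1, 1 of 5 GFP-positive libraries lay above the GFP-negative median (log2 fold change -0.39, SE 0.36), and in set 2, 5 of 6 did (0.30, SE 0.36). The test of that difference between sets gave 0.67 (SE 0.52, p = 0.208 before adjustment and 0.869 after, edgeR quasi-likelihood test). Sptssa made up 91.5% of the summed small subunit counts in GFP-positive libraries (Wilson interval 90.4 to 92.6%) and 88.9% in GFP-negative libraries (86.5 to 90.9%), the remainder being Sptssb. Per library this share averaged 91.3 ± 6.72% in GFP-positive (SD, n = 11) and 92.3 ± 7.30% in GFP-negative libraries (SD, n = 12), so the gap between the pooled shares did not appear in the per-library means.

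Summed over its 4 genes, serine palmitoyltransferase stood at 202 ± 47.8 CPM for GFP-positive (SD, n = 11) and 204 ± 64.8 CPM for GFP-negative (SD, n = 12). The difference was far inside the spread of either population.

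Kdsr encodes the reductase of the second step, on chromosome 1 (106720459 to 106759727, minus strand). Its level was 0 CPM in the lowest, 36.9 in the median and 47.9 in the highest GFP-positive library, against 8.61, 24.5 and 71.9 CPM in GFP-negative libraries. Of 11 GFP-positive libraries, 8 lay above the GFP-negative median. The GFP-positive zero (GFP-positive 4) and the GFP-negative maximum (GFP-negative 12, from 5 counts) were both in libraries under 100000 counts. The log2 fold change was 0.36 over all libraries (SE 0.32, adjusted p = 0.997, edgeR quasi-likelihood test). Among libraries of at least 100000 counts it was 0.58 (SE 0.29, p = 0.0561 before adjustment and 0.991 after, edgeR quasi-likelihood test). Of these, 9 of 10 GFP-positive libraries lay above the GFP-negative median. That median, 19.6 CPM, was the value of GFP-negative 11 and rested on 2 counts, under the detection floor of 3 counts. GFP-negative 10 held 1 count. Kdsr also had the lowest biological coefficient of variation of the 8 tested members (edgeR's estimate of spread between libraries beyond counting noise), 0.380 beside a median of 0.440 over all genes, and Degs1 had the highest, 0.520.

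Cers2, whose enzyme attaches very long acyl chains, had the most counts of the ceramide synthases. It lay on chromosome 3 (95314791 to 95323599, plus strand). Its level was 65.3 CPM in the lowest, 111 in the median and 165 in the highest GFP-positive library, against 0, 116 and 198 CPM in GFP-negative libraries. With 5 of 11 GFP-positive libraries above the GFP-negative median, the populations were interleaved, and the difference was 0.10 on the log2 scale (SE 0.26, 95% interval -0.42 to 0.62; adjusted p = 0.997, edgeR quasi-likelihood test). In library set 1 all 5 GFP-positive libraries lay above the GFP-negative median (log2 fold change 0.57, SE 0.38), and in set 2 only 1 of 6 did (-0.31, SE 0.32). The difference between the sets was -0.93 (SE 0.50, set 2 minus set 1, p = 0.0711 before adjustment and 0.766 after, edgeR quasi-likelihood test). With edgeR's RLE size factors in place of TMM it was -1.14 (p = 0.0275 before adjustment, 0.646 after, edgeR quasi-likelihood test). Cers2 overlaps the opposite-strand gene Setdb1 by 75 bases and an antisense transcript by 337 bases.

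Cers5 and Cers6 encode the synthases that prefer palmitoyl-CoA and make ceramides with the shorter chain. Cers5 (chromosome 15, 99734881 to 99772885, minus strand) had 14.1 CPM in the lowest, 25.2 in the median and 80.8 in the highest GFP-positive library, against 0, 11.3 and 52.0 CPM in GFP-negative libraries. All 11 GFP-positive libraries lay above the GFP-negative median, and 7 of 12 GFP-negative libraries lay below every GFP-positive one. Of those 7, GFP-negative 5, 10 and 12 held 0 counts and GFP-negative 2, 3 and 11 held 1 each. In these libraries 3 counts correspond to 19.1 to 118 CPM, above the lowest GFP-positive value, so their low values may reflect depth. GFP-negative 8 held 11 counts. GFP-negative 1, GFP-negative 4 and GFP-negative 6, with 40.0, 52.0 and 43.0 CPM, stood above all GFP-positive libraries but 2. The means were 29.8 ± 19.8 CPM in GFP-positive (SD, n = 11) and 17.4 ± 18.0 CPM in GFP-negative libraries (SD, n = 12). Pooled over each population, which weights deep libraries most, the order was the other way, with 22.997 CPM in GFP-positive and 27.46 CPM in GFP-negative libraries. GFP-negative 6 alone held 99 of the 167 GFP-negative counts. The difference was 0.30 on the log2 scale (SE 0.39, 95% interval -0.49 to 1.10; adjusted p = 0.997, edgeR quasi-likelihood test), 0.54 without GFP-negative 6 and 0.16 without GFP-positive 6. It was -0.21 (SE 0.53) in library set 1 and 0.88 (SE 0.56) in set 2, and the difference between the sets (0.98, SE 0.78) did not pass its test (adjusted p = 0.876, edgeR quasi-likelihood test).

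Cers6 (chromosome 2, 68861441 to 69114282, plus strand) had 0 CPM in the lowest, 47.4 in the median and 88.9 in the highest GFP-positive library, against 0, 37.2 and 114 CPM in GFP-negative libraries. Each population held 1 library at 0, GFP-positive 4 and GFP-negative 5, both under 100000 counts. The highest value was in GFP-negative 3. The populations overlapped over the whole range, and the log2 fold change was 0.11 (SE 0.33, adjusted p = 0.997, edgeR quasi-likelihood test). The Cers6 locus holds 6 uncharacterised same-strand transcripts with 8 to 64 counts each over GFP-positive libraries and 3 to 29 over GFP-negative libraries, between which and Cers6 reads could be divided.

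Cers4, whose enzyme prefers stearoyl-CoA and somewhat longer chains, was sparse, with 191 counts in GFP-positive and 93 counts in GFP-negative libraries. It lay on chromosome 8 (4493026 to 4531680, plus strand). Its level reached 19.7 CPM at most in GFP-positive libraries (median 7.98), against 26.9 CPM in GFP-negative libraries (median 5.88). No count was found in 1 of 11 GFP-positive and 6 of 12 GFP-negative libraries. Of the 6 GFP-negative zeros, 3 fell in the libraries under 100000 counts. In a fit with no filter, the log2 fold change was -0.37 (SE 0.54, adjusted p = 0.796, edgeR quasi-likelihood test).

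Within the ceramide synthase family the composition by counts, not corrected for gene length, was similar in both populations. Of 4079 family counts in GFP-positive libraries, Cers2 made up 57.5% (Wilson interval 55.9 to 59.0%), against 53.0% of 1301 counts in GFP-negative libraries (50.3 to 55.7%). Cers6 followed with 23.61% in GFP-positive and 22.98% in GFP-negative libraries. Per kilobase of exon the mean of Cers5 stood above that of Cers6. It was 8.41 ± 5.58 against 5.07 ± 2.71 CPM per kilobase in GFP-positive libraries (SD, n = 11). In GFP-negative libraries it was 4.91 ± 5.08 against 4.59 ± 3.28 (SD, n = 12). Cers5 made up 10.6% in GFP-positive and 12.8% in GFP-negative libraries, Cers4 4.68% in GFP-positive and 7.15% in GFP-negative libraries, and Cers3 3.628% in GFP-positive and 3.997% in GFP-negative libraries. Cers1, the synthase best known from neurons and muscle, had 0 counts in every library, which allows a share of up to 0.0941% in GFP-positive and 0.294% in GFP-negative libraries (upper Wilson bounds). The pooled intervals of Cers2 and Cers4 did not overlap between the populations. The per-library mean share of Cers4 kept the pooled order, with 4.37 ± 3.61% in GFP-positive (SD, n = 10) and 5.72 ± 5.23% in GFP-negative libraries (SD, n = 9) among libraries of at least 100000 counts, a difference inside the spread. The mean share of Cers5 turned, and that of Cers2 turned only with the libraries under 100000 counts left out. Over all libraries Cers2 averaged 53.7 ± 9.84% in GFP-positive (SD, n = 11) and 53.4 ± 24.2% in GFP-negative libraries (SD, n = 12). GFP-negative 10 and GFP-negative 11, both over 100000 counts, held 95.8 and 76.5% Cers2, from 24 and 17 family counts. Among libraries of at least 100000 counts, Cers2 made up 54.6 ± 9.85% in GFP-positive (SD, n = 10) and 56.8 ± 19.7% in GFP-negative libraries (SD, n = 9), a difference smaller than either SD and opposite in sign to the pooled one. Cers5 made up 12.97 ± 8.16% in GFP-positive (SD, n = 10) and 8.99 ± 7.67% in GFP-negative libraries (SD, n = 9), also inside the spread and opposite to the pooled order.

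**Figure D2:**
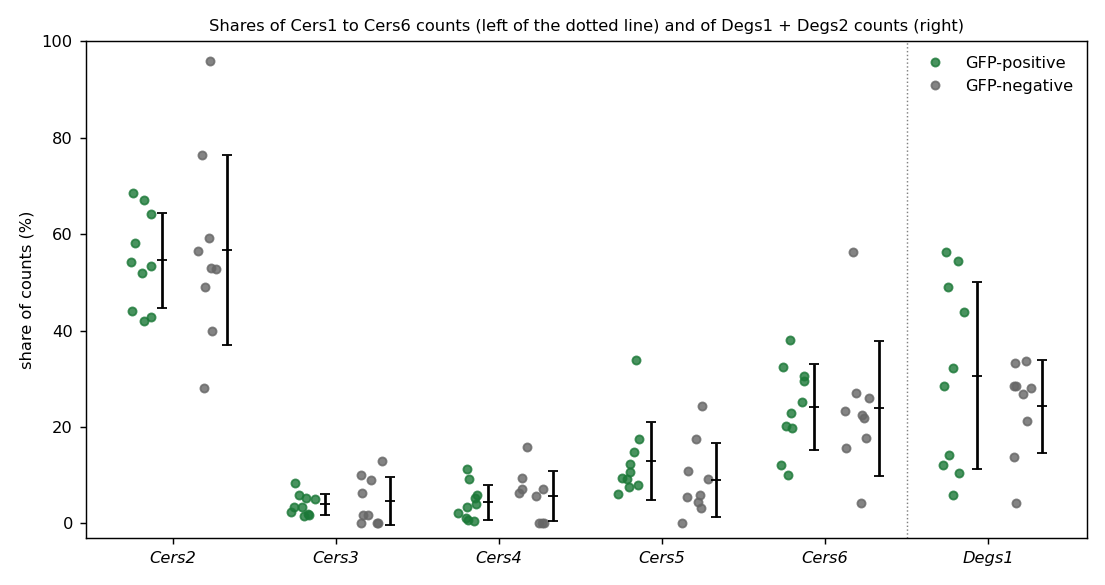
Share of each ceramide synthase in the summed counts of Cers1 to Cers6 (left of the dotted line; Cers1 had 0 counts and is not drawn) and share of Degs1 in Degs1 plus Degs2 (right), in percent, for libraries of at least 100000 counts. Points are libraries (10 GFP-positive in green, 9 GFP-negative in grey) and bars the mean and SD. Cers2 held the highest mean share in both populations, and the Degs1 share ran from 5.83 to 56.3% among GFP-positive libraries.

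Degs1 encodes the desaturase that completes ceramide, on chromosome 1 (182275772 to 182282804, minus strand). It had the largest fold change among the tested members. Its level was 22.3 CPM in the lowest, 64.2 in the median and 180 in the highest GFP-positive library, against 0, 48.5 and 115 CPM in GFP-negative libraries. GFP-positive 1, GFP-positive 3 and GFP-positive 9, with 180, 131 and 121 CPM, exceeded every GFP-negative library. At the low end, 3 GFP-negative libraries lay below every GFP-positive one, and GFP-positive 7 and GFP-positive 10 were low with 22.3 and 30.6 CPM. Those 3, GFP-negative 2, 4 and 5, held 1, 0 and 0 counts. There 3 counts correspond to 22.8, 52.0 and 118 CPM, above the lowest GFP-positive value, so their low values may reflect depth. The means were 77.7 ± 48.3 CPM in GFP-positive (SD, n = 11) and 47.0 ± 33.6 CPM in GFP-negative libraries (SD, n = 12). The log2 fold change of 0.61 (SE 0.35, 95% interval -0.09 to 1.31) did not pass the test (p = 0.0863 before adjustment and 0.997 after, edgeR quasi-likelihood test).

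The Degs1 difference was larger in library set 1. There the 5 GFP-positive libraries (GFP-positive 1 to 5) had 180, 81.6, 131, 53.9 and 45.1 CPM, against a lowest value of 0, a median of 26.0 and a highest of 80.0 CPM in the 6 GFP-negative libraries. All 5 GFP-positive libraries lay above the GFP-negative median, and 3 of them above every GFP-negative library. That median was lowered by GFP-negative 2, 4 and 5, with 1, 0 and 0 counts, and GFP-positive 4's value rested on 2 counts. All of these lie under the detection floor of 3 counts. The difference was 1.296 on the log2 scale (SE 0.52, 95% interval 0.22 to 2.37, p = 0.0203 before adjustment and 0.894 after, edgeR quasi-likelihood test). Of the 8 members tested in set 1, 0 were called, beside 0% of 5256 genes, and at an unadjusted p under 0.05 the test held 1 member, Degs1, and 5.4% of all genes. DESeq2 called 0 of the 8 members to which it gave an adjusted p there. The fold change was 1.02 (p = 0.0881 before adjustment) without GFP-positive 1 and 1.12 (p = 0.0539 before adjustment) without GFP-positive 3 (edgeR quasi-likelihood test). It was highest, 1.71 (p = 0.0043 before adjustment, smallest adjusted p of any left-out library 0.387), without GFP-negative 1 (edgeR quasi-likelihood test). GFP-positive 3 is the library with 23154 CPM of macrophage markers, and GFP-positive 1 held the most fibroblast markers of the GFP-positive libraries, 2082 CPM. The part of these cells in the Degs1 level was not tested.

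In library set 2, Degs1 showed no such gap. It ranged from 22.3 through a median of 55.8 to 121 CPM in GFP-positive libraries, against 39.2, 58.5 and 115 CPM in GFP-negative libraries, with a log2 fold change of -0.049 (SE 0.40). The difference between the sets was -1.38 (set 2 minus set 1, SE 0.67, p = 0.0449 before adjustment and 0.762 after, edgeR quasi-likelihood test). At an unadjusted p under 0.05 this test of the difference held 1 of 8 members, beside 6.4% of all genes. With edgeR's RLE size factors it held 3 of 8, beside 7.29% of all genes. Without GFP-negative 6 it also held 3 of 8, beside 6.84% of all genes. No member passed the adjusted threshold in this test of the difference, beside 0% of 6621 genes. The value of set 2 minus set 1 was positive for 4 of 8 members, beside 49.2% of all genes.

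Degs2, a related enzyme that can act as desaturase and as hydroxylase of dihydroceramide, was the more abundant of the desaturases. It had 191 ± 102 CPM in GFP-positive (SD, n = 11) and 157 ± 56.6 CPM in GFP-negative libraries (SD, n = 12), with a log2 fold change of 0.32 (SE 0.26, adjusted p = 0.997, edgeR quasi-likelihood test). In set 1 the value was -0.27 (SE 0.35) and in set 2 0.82 (SE 0.33), opposite in order to Degs1, and the difference between the sets was 1.05 (SE 0.49, p = 0.0393 before adjustment and 0.762 after, edgeR quasi-likelihood test). Degs1 made up 32.3% of the summed desaturase counts in GFP-positive (Wilson interval 31.0 to 33.5%) and 25.1% in GFP-negative libraries (22.8 to 27.4%). Per library of at least 100000 counts this share averaged 30.7 ± 19.4% in GFP-positive (SD, n = 10) and 24.3 ± 9.71% in GFP-negative libraries (SD, n = 9), a difference inside the spread. The GFP-positive libraries were far apart. GFP-positive 1, GFP-positive 3, GFP-positive 9 and GFP-positive 6 had 56.3, 54.5, 49.1 and 43.9% Degs1, while GFP-positive 7, GFP-positive 10, GFP-positive 5 and GFP-positive 8 had 5.83, 10.4, 12.0 and 14.1%. No GFP-negative library of at least 100000 counts exceeded 33.7%.

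The library sets gave the following counts over the tested members. In library set 1 the fold change was positive for 6 of 8 (median 0.27), beside 54.1% of all genes (median 0.053). In library set 2 it was positive for 5 of 8 (median 0.14), beside 56.1% of all genes (median 0.067). There edgeR's quasi-likelihood test called 0 of 8 members, beside 1.28% of 6952 genes, and at an unadjusted p under 0.05 it held 0 members and 6.88% of all genes. DESeq2 called 0 of the 9 members to which it gave an adjusted p in set 2. Sptlc1 came nearest in set 2, at -0.94 on the log2 scale (SE 0.49, p = 0.0676 before adjustment and 0.798 after, edgeR quasi-likelihood test), and at -0.26 (p = 0.573) without GFP-negative 11. In set 1, 7 of 7 tested macrophage markers had a positive fold change (median 1.59 on the log2 scale), with GFP-positive 3 included. Without it, the 4 GFP-positive libraries of set 1 held 147 to 763 CPM of macrophage markers, against 310 to 4515 CPM in the 6 GFP-negative ones. In set 2 all 7 were called lower in GFP-positive libraries (median -3.66). Of the 6 fibroblast markers tested in set 2, 3 were called lower in GFP-positive libraries. Their part in the members' values was not tested.

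**Figure D3:**
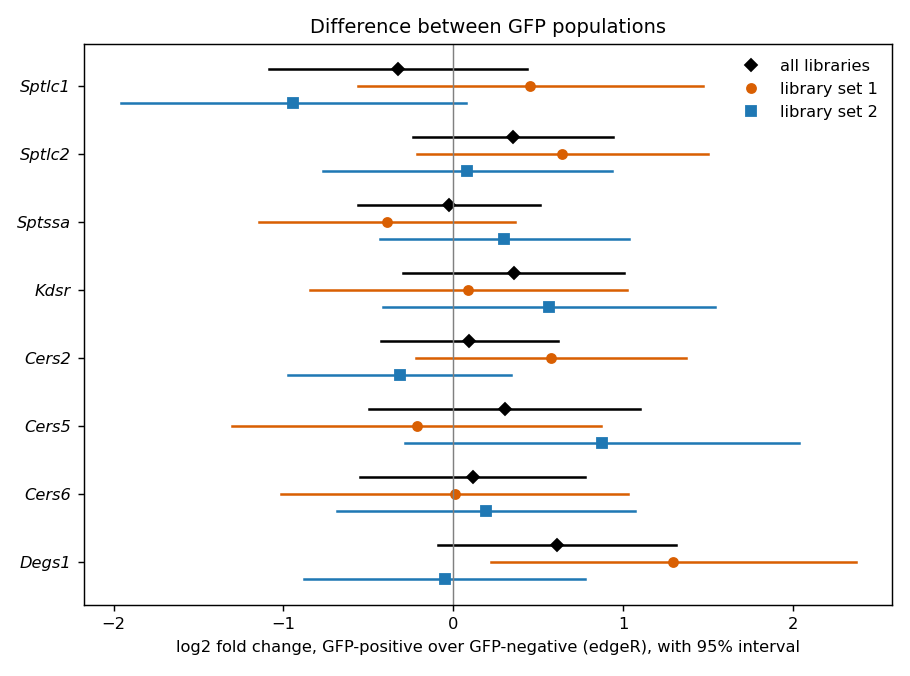
Fold change of the 8 tested members, GFP-positive over GFP-negative on the log2 scale, from edgeR's quasi-likelihood fit, with lines for the 95% interval. Diamonds are all libraries, circles library set 1 and squares library set 2. Every interval over all libraries and in set 2 crosses 0, and in set 1 only that of Degs1 (0.22 to 2.37) does not.

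Library names begin with an identifier, and 9 identifiers appear by name in both populations. A 10th was made by merging a GFP-positive library named for a pair of identifiers with a GFP-negative library of each, all under 100000 counts. Identifier 61-1 names both GFP-positive 2 (set 1) and GFP-positive 7 (set 2). The main tests and the SDs over libraries counted them separately. With libraries of 1 population averaged within an identifier, Sptssa and Cers5 were higher in GFP-positive for 8 of 10 identifiers, Sptlc2 and Kdsr for 7, Cers6 and Degs1 for 6, Cers2, Cers4 and Sptlc3 for 5, and Sptlc1 for 4. The mean difference of Cers5 was 1.29 ± 1.66 on the log2 CPM scale (SD, n = 10 identifiers) and that of Degs1 0.96 ± 1.65, so for both the spread exceeded the mean. Without the merged identifier the means were 1.15 ± 1.69 for Cers5 and 0.55 ± 1.09 for Degs1 (SD, n = 9), the Degs1 difference of 4.65 in that identifier resting on 2 GFP-positive counts and 0 GFP-negative counts. With only libraries of the same set compared, in set 1 Sptlc2, Cers2 and Degs1 were higher in the GFP-positive library of each of the 4 identifiers. In the merged identifier this rested on 3, 4 and 2 GFP-positive counts for Sptlc2, Cers2 and Degs1, against 3, 7 and 0 GFP-negative counts. Within set 2, Sptssa and Cers5 were higher in GFP-positive for all 6 identifiers, Kdsr for 5 of 6, and Cers2 was lower for 5 of 6. The Sptssa differences in set 2 ran from 0.037 to 1.56 and those of Cers5 from 0.091 to 3.91. The highest Cers5 differences were against GFP-negative libraries with 0 counts of the gene. In GFP-negative 10, 11 and 12, Sptssa rested on 4, 6 and 6 counts and Kdsr on 1, 2 and 5. How many of all genes kept the same direction across identifiers was not computed, so these tallies are a description.

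**Figure D4:**
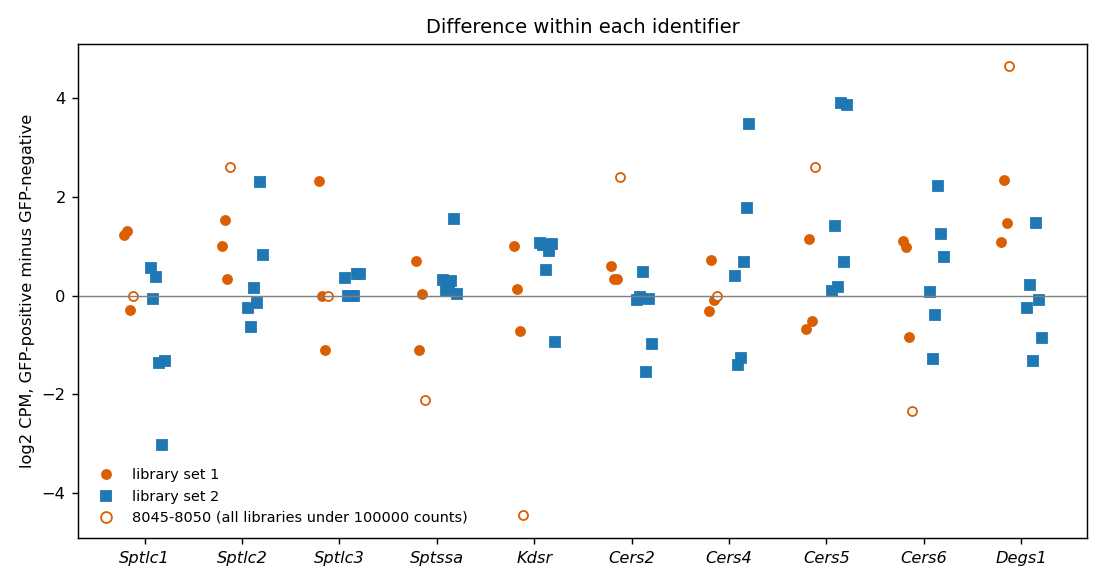
Difference in log2 CPM scaled by TMM, GFP-positive minus GFP-negative, within each of the 10 identifiers that have both populations. Only libraries of the same set are compared. Filled circles are library set 1, squares library set 2, and the open circle is the identifier whose libraries all have under 100000 counts. Squares of Cers5 and Sptssa all lie above 0, and the differences of Degs1 spread from -1.31 to 4.65.

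Levels were compared between genes per kilobase of exon. In GFP-positive libraries Sptssa was highest with 69.0 ± 26.2 CPM per kilobase, followed by Cers2 with 31.0 ± 9.54 and Degs1 with 30.0 ± 18.6. Sptlc1 with 9.97 ± 5.40, Cers5 with 8.41 ± 5.58, Sptlc2 with 7.54 ± 2.47, Cers6 with 5.07 ± 2.71 and Kdsr with 3.88 ± 1.67 CPM per kilobase formed a middle group, and Cers4 (0.64 ± 0.56) and Sptlc3 (0.34 ± 0.83) were lowest (SD, n = 11). In GFP-negative libraries the order was the same except that Sptlc2 (5.39 ± 3.34) stood above Cers5 (4.91 ± 5.08), with Sptssa at 73.0 ± 35.4, Cers2 at 28.7 ± 13.4 and Degs1 at 18.14 ± 12.95 CPM per kilobase (SD, n = 12). Neighbours in the order differed by more than the larger of their SDs only between Sptssa and Cers2 and between Kdsr and Cers4 in both populations, and between Degs1 and Sptlc1 in GFP-positive libraries. All other neighbours differed by no more than that SD, which describes the spread and is not a test of their order.

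**Figure D5:**
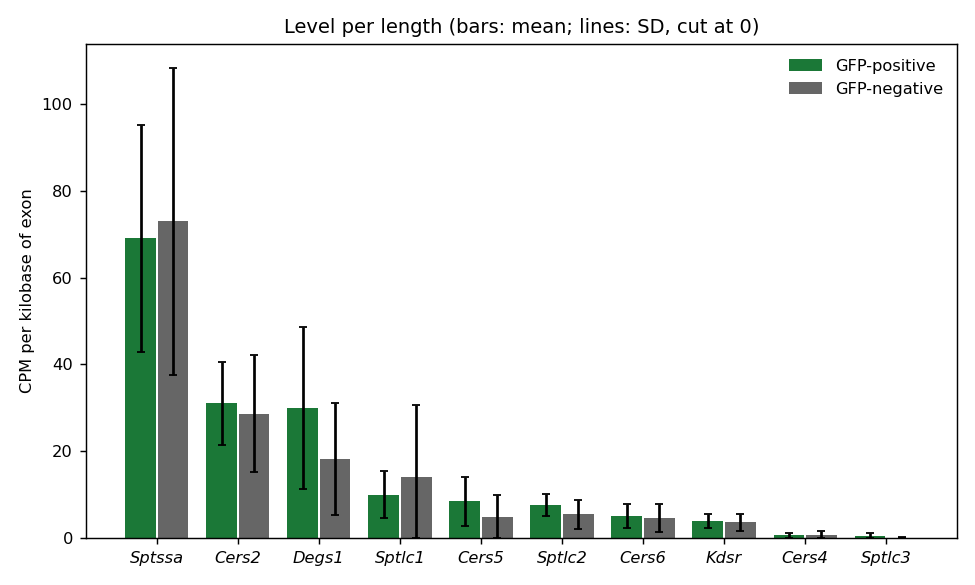
Mean level of the 10 genes in CPM per kilobase of annotated exon, GFP-positive (green, n = 11) left of GFP-negative (grey, n = 12), on an axis that starts at 0. Lines give the SD and are cut at 0. Sptssa stands highest in both populations (69.0 in GFP-positive and 73.0 in GFP-negative libraries), and Cers4 and Sptlc3 lie below 1.

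Genes around the core pathway were not called either. Of 10 other genes of de novo synthesis (the small subunit Sptssb, Cers1, Cers3, Degs2, the Ormdl inhibitors of serine palmitoyltransferase, the elongation genes Tecr and Hacd3, and the protein acyltransferase Zdhhc9), 6 passed the filter, 0 were called and 4 had a positive fold change (median 0.15). Among all tested genes 0.0151% were called and 58.5% had a positive fold change (median 0.066). Ormdl2 had 135 ± 56.4 CPM in GFP-positive and 118 ± 49.5 CPM in GFP-negative libraries (SD over 11 and 12 libraries), a log2 fold change of 0.16. Tecr, the last reductase of fatty acid elongation, had 384 ± 91.8 CPM in GFP-positive and 362 ± 107 CPM in GFP-negative libraries, a log2 fold change of 0.13.

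Of 10 genes of acyl-CoA supply all 10 were tested and 0 were called, beside 0.0151% of all genes. A positive fold change was found for 6 (median 0.13), beside 58.5% of all genes (median 0.066). Dbi, which binds acyl-CoA, had 465.7 ± 130 CPM in GFP-positive and 513 ± 136 CPM in GFP-negative libraries (log2 fold change -0.10). The acyl-CoA synthetase Acsl4 had 113 ± 63.7 CPM in GFP-positive and 92.6 ± 41.3 CPM in GFP-negative libraries (0.16), and the elongase Elovl1, which acts upstream of Cers2 in very long chain supply, 89.1 ± 36.9 CPM in GFP-positive and 108 ± 39.0 CPM in GFP-negative libraries (-0.20).

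Of 24 genes on routes out of and back to ceramide, 15 were tested and 0 were called, beside 0.0151% of all genes. A positive fold change was found for 10 of the 15 (median 0.13), beside 58.5% of all genes (median 0.066). Asah1, the acid ceramidase, had 246 ± 86.4 CPM in GFP-positive and 214 ± 59.8 CPM in GFP-negative libraries (log2 fold change 0.22, SE 0.21). The sphingomyelin synthase Sgms1 had 78.5 ± 41.3 CPM in GFP-positive and 55.8 ± 35.6 CPM in GFP-negative libraries (0.49, SE 0.31). The alkaline ceramidase Acer3 had 66.3 ± 25.2 CPM in GFP-positive and 56.5 ± 30.6 CPM in GFP-negative libraries (0.28, SE 0.28).

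Among the tested genes, those whose log2 CPM followed Cers2, the member with the highest mean CPM, most closely over the 19 libraries of at least 100000 counts were Gm20390 (Pearson r 0.74), Tagln2 (0.74), Ddx5 (0.73), Litaf (0.72) and Pld3 (0.72). The libraries share depth and library set, and these values are a description.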

How the data were processed

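RNA of sorted GFP-positive (n = 11) and GFP-negative (n = 12) cells was sequenced from poly(A)-selected, strand-marking libraries, per the labels' protocols. The deposited table holds estimated counts (expected counts per gene, whole numbers as deposited), made by the authors with Salmon 1.3.0 and mm10, per the submitters' processing notes. The sources used here do not give the transcript annotation or the options. Reads matching several transcripts are apportioned by the tool, so counts of overlapping genes are uncertain. Gene positions and exon lengths came from GENCODE release M21 (mm10), which holds 94.7% of the table's identifiers.

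CPM is the count over the library total, scaled without TMM, except where log2 CPM is named. Tests used edgeR 4.0.16 (R 4.3.3) on the whole table: TMM, filterByExpr by population, a robust quasi-likelihood fit and Benjamini-Hochberg adjustment over all tested genes at 0.05. They covered all libraries, each library set and the interaction of population with set. Only the fit over all libraries was tested on simulated data. DESeq2 1.42.0 was an alternative, with others on size factors, filters, depth, blocks and left-out libraries. Within identifiers and for likeness to Cers2, log2 CPM was scaled by TMM, with a prior count of 2. A level of 3 counts served as the detection floor. No pair of libraries within a population agreed within sampling noise (121 pairs).

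The members and lists were chosen with earlier results of these data known. Named were all 10 members, and of each list the genes past the threshold or otherwise the 3 most abundant. The 5 genes most like Cers2 were ranked by Pearson r. Intervals of shares are Wilson 95% intervals. For the list of routes out of and back to ceramide, 1 gene's values are not reported here.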

Additional observations from a re-analysis of the deposited data

Results flagged for a closer look

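Among 39 sets of libraries (a gene within a population and library set), 9 held a library farther from the others than the 95% critical value for such a gap. That value assumes normally distributed values of equal spread. It gives no rate expected by chance for sparse counts from libraries of unlike depth, so the flags are a description. For GFP-positive libraries these were Sptlc2 at 90.9 CPM in GFP-positive 9 (78 counts), Sptlc3 at 8.02 CPM in GFP-positive 1 (34 counts), Cers5 at 80.8 CPM in GFP-positive 4 (3 counts) and at 52.3 CPM in GFP-positive 6 (17 counts), and Cers6 at 15.4 CPM in GFP-positive 6 (5 counts), the last being low and the others high. For GFP-negative libraries they were Sptlc1 at 225 CPM in GFP-negative 11 (23 counts), Sptlc3 at 2.17 CPM in GFP-negative 6 (5 counts), Kdsr at 71.9 CPM in GFP-negative 12 (5 counts) and Degs1 at 115 CPM in GFP-negative 12 (8 counts). All 4 of these GFP-negative values were high. GFP-positive 4 and GFP-negative 12 have under 100000 counts, so that a few counts set these values. Without GFP-negative 11 the Sptlc1 log2 fold change over all libraries was 0.086, in place of -0.33, and without GFP-negative 12 that of Kdsr was 0.47, in place of 0.36.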

How the results depend on the processing

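No member was called under any setting run. Under settings other than leaving out a library, 166 member fold changes kept their direction and 10 turned. Over all libraries, Sptssa (-0.025) became 0.074 with no filter, 0.0039 with a strict filter, 0.014 among libraries of at least 100000 counts, 0.083 with a replicate block by identifier and 0.091 with that block and GFP-positive 3 left out (an alternative chosen after seeing the data). Cers2 (0.096) became -0.059 and -0.12 under the same pair of blocks. In set 1, Kdsr (0.089) became -0.14 with the block, and Cers5 (-0.21) became 0.0045 with no filter. In set 2, Degs1 (-0.049) became 0.073 with no filter. Leaving out each library gave -0.11 to 0.10 for Sptssa and -0.43 to 0.086 for Sptlc1 over all libraries, -0.047 to 0.20 for Kdsr and -0.25 to 0.42 for Cers6 in set 1, -0.12 to 0.33 for Sptlc2 and -0.35 to 0.13 for Degs1 in set 2, and -0.22 to 0.46 for Cers6 in the interaction. Across left-out libraries the smallest p of Degs1 over all libraries was 0.0487 before adjustment, and its smallest adjusted p 0.895 (edgeR quasi-likelihood test). With no filter the p was 0.0431 and 0.412 adjusted.

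Counts of called genes moved more. Over all libraries (1 gene) they were 57 with DESeq2, 2 with the replicate block by identifier, 0 with a replicate block by title number and 97 with the identifier block without GFP-positive 3, and 0 to 16 with each library left out, 16 being without GFP-positive 3. In set 1 (0 genes) DESeq2 called 9, and leaving out a library 0 to 6 (6 without GFP-negative 6). In set 2 (89 genes) DESeq2 called 284, no filter 375 and the identifier block 140, with 65 to 118 on leaving out a library. In the interaction (0 genes) no filter called 1, and leaving out a library 0 to 6 (6 without GFP-negative 6). The causes were not tested. The RLE size factors of edgeR moved the median of all genes in the interaction from -0.0095 to -0.16. Deviations correlated over 0.1 in 2 of 11 same-numbered title pairs, in 5 of 12 identifier pairs (median r 0.080) and in 22 of all 132 cross pairs (median -0.0063), and the labels do not say whether an identifier marks an animal, so a pairing was neither assumed nor set aside by this. Half-widths of the 95% intervals, 0.52 to 0.80 over all libraries on the log2 scale, set what depth and spread allow.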
